A study of Mus musculus with 6 samples.

Results

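Smpd3, Phospho1, Alpl, Enpp1, Ank, Slc20a1 and Slc20a2 are 7 genes of bone mineralization, and their expression was read by gene symbol from a table of 39179 genes measured by RNA sequencing. Each symbol had 1 row in the table. Ocy454, a mouse cell line with osteocytic properties, had been grown to confluence at 33 °C and kept at 37 °C for 14 days. All cells were then treated for 4 h, either with vehicle (PBS with 25 mM HCl in the labels, while the study's supplement gives DMSO as the solvent of compounds for cell culture), with 1 nM PTH 1-34, the active fragment of parathyroid hormone, or with 0.5 µM YKL-05-093, a compound that inhibits salt-inducible kinases. Each condition had 2 libraries of the same line, called experimental duplicates in the study's methods, and whether they were separate cultures is not stated. The p-values therefore measure the spread between these libraries, which may be technical. The set was chosen by the RPKM of Smpd3, whose low level after PTH was already known from these libraries, together with genes that share its biology, so its values in the comparisons with PTH are a description and are given without a test.

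Mineral in bone starts in matrix vesicles, small membrane sacs that cells shed into the matrix, and its growth depends on the balance of phosphate and pyrophosphate. Pyrophosphate blocks the growth of hydroxyapatite crystals. Smpd3 encodes neutral sphingomyelinase 2, which splits membrane sphingomyelin into ceramide and phosphocholine. Phospho1 encodes a phosphatase that frees phosphate from phosphocholine and phosphoethanolamine. Alpl encodes tissue-nonspecific alkaline phosphatase, which breaks down pyrophosphate. Enpp1 encodes the ectoenzyme that makes pyrophosphate from ATP, and Ank encodes a membrane protein that lets pyrophosphate or ATP out of the cell. Slc20a1 and Slc20a2 encode the sodium-phosphate cotransporters PiT-1 and PiT-2. PTH raises cyclic AMP in osteocytes, and the study asked how much of its action on gene expression an inhibitor of the salt-inducible kinases shares.

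In the GENCODE M21 annotation of GRCm38, Smpd3 (ENSMUSG00000031906) lay on the minus strand at chr8:106252548-106337988 and Slc20a2 (ENSMUSG00000037656) on the plus strand at chr8:22476788-22569612. Alpl (ENSMUSG00000028766) lay on the minus strand at chr4:137741733-137796384 and Phospho1 (ENSMUSG00000050860) on the plus strand at chr11:95824499-95832140. Enpp1 (ENSMUSG00000037370) lay on the minus strand at chr10:24637914-24712159, Ank (ENSMUSG00000022265) on the plus strand at chr15:27466677-27594909 and Slc20a1 (ENSMUSG00000027397) on the plus strand at chr2:129198764-129211616. The values of the 7 genes were sums over all annotated exons, so they do not separate coding sequence from untranslated regions or one isoform from another.

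RefSeq promoter windows of GRCm38.p6, which hold 300 bases around a start site, most of them before it, were at hand for 5 of the 7 genes. The windows of Phospho1 and Enpp1 are shown because both hold 1 cyclic AMP response element core (TGACG, read on either strand) at almost the same place before the start site, while only Phospho1 passed the test for a change after PTH. The core is in capitals, and appears as CGTCA where it lies on the other strand. The Phospho1 window is chr11:95824250-95824549 on the plus strand, and that of Enpp1 is chr10:24712110-24712409 on the minus strand.
Phospho1: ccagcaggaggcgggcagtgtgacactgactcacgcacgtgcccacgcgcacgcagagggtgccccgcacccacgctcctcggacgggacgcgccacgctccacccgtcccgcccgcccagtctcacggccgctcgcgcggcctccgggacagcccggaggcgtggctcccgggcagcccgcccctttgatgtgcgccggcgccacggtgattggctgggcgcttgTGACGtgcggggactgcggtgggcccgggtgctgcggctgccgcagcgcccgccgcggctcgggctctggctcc
Enpp1: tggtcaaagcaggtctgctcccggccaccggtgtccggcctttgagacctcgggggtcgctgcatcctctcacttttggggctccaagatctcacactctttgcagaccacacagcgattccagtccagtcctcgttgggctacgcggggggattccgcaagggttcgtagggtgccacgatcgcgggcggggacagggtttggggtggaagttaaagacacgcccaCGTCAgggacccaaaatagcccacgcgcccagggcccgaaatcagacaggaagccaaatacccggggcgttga
The core began at position -24 from the start site in Phospho1 and at -23 in Enpp1. Of all 32851 windows of this length, 20.8% held the core, so its presence is common. It was also found in 1 of the 2 Alpl windows and in both Slc20a1 windows, and not in that of Ank. The full element TGACGTCA, held by 1.79% of all windows, was in none of the windows of the 5 genes. A MEF2-type motif (CTA and TAG with 4 bases of any kind between them, both strands, 3.69% of all windows) was in 1 of the 2 Slc20a1 windows, and a RUNX-type motif (TGTGGT, both strands, 16.8% of all windows) was in the Enpp1 window and in 1 of the 2 Slc20a1 windows. These are matches of letters in a window, and the data hold no measure of binding there.

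The library totals were between 17505798 and 27983585 reads, as worked back from the deposited RPKM (a read count divided by gene length and by library size). The vehicle libraries differed most from each other, with a median absolute log2 difference between replicates of 0.333 over the tested genes, against 0.108 for PTH and 0.103 for YKL-05-093. Of 10 osteocyte and osteoblast markers, 6 had at least 0.5 RPKM in all 6 libraries, and Sost, Mepe and Fgf23 were under 0.5 RPKM in all of them. Dmp1, another osteocyte marker, had 0.376 to 1.16 RPKM. The 10 markers summed to 402 to 517 RPKM in vehicle, 579 to 653 with PTH, and 473 to 548 with YKL-05-093. Col1a1 (259 to 430 RPKM over the 6 libraries) made up most of the sum, and the list did not move one way, since Sp7 and Runx2 were lower in both PTH libraries (11.1 to 12.2 and 7.02 to 7.87 RPKM) than in vehicle (45.5 to 46.0 and 13.0 to 19.5 RPKM). All 4 adipocyte, 4 haematopoietic and 4 skeletal muscle markers were under 0.5 RPKM in every library. Chondrocyte markers summed to 0.909 to 0.956 RPKM in vehicle, 1.89 to 2.02 with PTH, and 0.914 to 1.34 with YKL-05-093, and endothelial markers to 0.514 to 0.652, 0.910 to 1.17 and 1.49 to 1.81 RPKM. Col2a1 and Kdr gave most of these sums, Acan was under 0.02 RPKM and Cdh5 was at 0 in every library. The part of these markers in the results for the 7 genes was not tested. In bulk RNA, fewer cells with a transcript and less of it per cell cannot be told apart.

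After 4 h of PTH, Smpd3, chosen for its low level there, and Phospho1 were low, while the genes of pyrophosphate turnover were not called. The 34 reads of Phospho1 in each PTH library limit its precision. Smpd3 stood at 8.92% and Phospho1 at 29.8% of their vehicle means. Alpl, Enpp1, Ank, Slc20a1 and Slc20a2 stood between 73.0% and 120% of theirs, and none of these 5 passed the test against vehicle. After YKL-05-093 no member passed the test, and Smpd3 had the lowest share of its vehicle mean, 63.8%. Calls needed both more than a 2-fold change and an adjusted p-value under 0.05, and 272 of 14261 tested genes were called for PTH against vehicle (1.91% of the genes tested, 0.813% as lower). For YKL-05-093 against vehicle 95 of 14255 were called (0.666% of the genes tested), and for PTH against YKL-05-093 172 of 14255 (1.21% of the genes tested, 0.470% as lower). All 7 genes passed the filter of at least 0.5 RPKM in at least 2 libraries, and Enpp1 was closest to it, at 0.671 to 1.21 RPKM.

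**Figure D1:**
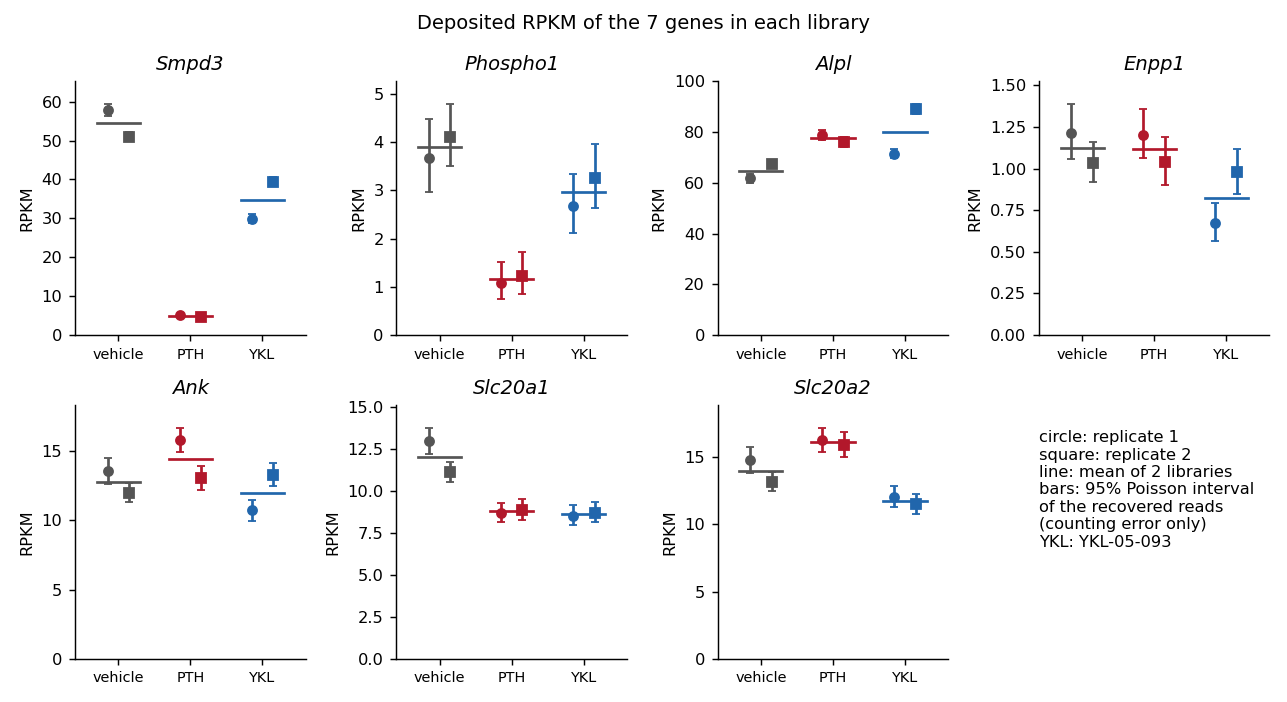
Deposited RPKM of the 7 genes in each of the 6 libraries, 1 panel per gene, on linear axes that start at 0. Points are libraries, horizontal lines are means of 2 libraries and bars are 95% Poisson intervals of the recovered reads, which cover counting error only. Smpd3 has 51.0 and 57.8 RPKM in vehicle and 4.63 and 5.07 RPKM in the PTH libraries, with YKL-05-093 between them, and Phospho1 has the same order at a lower level.

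Smpd3 had 57.8 and 51.0 RPKM in the vehicle libraries, 5.07 and 4.63 RPKM with PTH, and 29.95 and 39.5 RPKM with YKL-05-093. No library of one condition overlapped with those of another, and the order was vehicle, YKL-05-093, PTH. Such a separation downward was common among tested genes, at 24.0% (PTH against vehicle), 22.1% (YKL-05-093 against vehicle) and 23.7% (PTH against YKL-05-093). The means were 54.4 ± 4.77 RPKM in vehicle, 4.85 ± 0.31 with PTH, and 34.7 ± 6.72 with YKL-05-093 (SD, n = 2). Depth does not limit these values, since the lowest rests on 454 reads. In the vehicle libraries Smpd3 was among the strongly expressed genes, with 94.9% of the genes above 0 below it, and after PTH 63.0% were below it. The log2 difference from vehicle was -3.46 after PTH (standard error 0.167), the 32nd by size of 14261 tested genes, and the mean RPKM itself was 11.2-fold lower. PTH and YKL-05-093 differed by -2.80 (standard error 0.10), with a 7.15-fold lower mean RPKM after PTH, and by -2.87 and -2.74 without the first and the second PTH library. The log2 difference of YKL-05-093 from vehicle was -0.66 (standard error 0.199, 95% interval -1.13 to -0.19), and it did not pass the adjustment over all genes (adjusted p = 0.339, limma). Exons of Prmt7 on the opposite strand cover 4.72% of the Smpd3 exon length. Prmt7 had 12.4 and 14.0 RPKM in vehicle, 9.18 and 8.99 with PTH, and 11.8 and 11.6 with YKL-05-093.

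Phospho1, the phosphatase that acts on the phosphocholine released by sphingomyelinase, had 3.66 and 4.12 RPKM in vehicle, 1.085 and 1.23 with PTH, and 2.69 and 3.26 with YKL-05-093. Both PTH libraries were below all others, as in 24.0% of tested genes against vehicle and 23.7% against YKL-05-093, and both YKL-05-093 libraries were below both vehicle libraries. The means were 3.89 ± 0.320, 1.16 ± 0.102 and 2.97 ± 0.405 RPKM (SD, n = 2). PTH lowered Phospho1 by a log2 difference of -1.67 (standard error 0.213, 95% interval -2.16 to -1.17, adjusted p = 0.011, limma), and the mean RPKM was 3.36-fold lower. Against YKL-05-093 the PTH libraries were lower by a log2 difference of -1.29 (standard error 0.214, adjusted p = 0.000666), and the mean RPKM was 2.57-fold lower. YKL-05-093 against vehicle gave -0.38 (95% interval -0.86 to 0.10, adjusted p = 0.723), and 22.1% of all tested genes had both YKL-05-093 libraries below both vehicle libraries. The PTH values rest on 34 reads in each library, a count with a 95% Poisson interval of 23.6 to 47.5 reads. The call against vehicle was lost when the first PTH library was left out (-1.58, adjusted p = 0.236) or the second (-1.75, adjusted p = 0.18), where the lone library is assumed to vary like the others. Against YKL-05-093 it was also lost with a log scale of log2(RPKM + 1), at -0.88, since the change was then under 2-fold, and it was lost without the first PTH library (-1.20, adjusted p = 0.205), the second PTH library (-1.37, adjusted p = 0.201) or the second YKL-05-093 library (-1.15, adjusted p = 0.105).

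In GENCODE M21, Phospho1 shares much of its exon length with neighbours. Zfp652 exons on the same strand cover 89.6% of it and Abi3 exons on the opposite strand cover 84.2%. These are shares of 2029 bases in M21, while the length worked back from the RPKM was 1450 bases. The overlap in the older annotation used for counting can therefore differ. Zfp652 had 10.2 and 5.63 RPKM in vehicle, 5.51 and 5.08 with PTH, and 6.36 and 6.23 with YKL-05-093. Both PTH libraries of Zfp652 were thus below both vehicle libraries, as in 24.0% of tested genes, though close to the second vehicle library. The part of shared exons in the result for Phospho1 was not tested. Abi3 was at or under 0.18 RPKM in every library. Reads that fall on exons of 2 genes are left out by the default of the counting tool, and the mode and strand setting used are not stated. The level of Phospho1 can therefore be wrong beside those of the other genes. Its comparison across conditions can be affected as well, which was not tested.

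Within a library, the ratio of Smpd3 to Phospho1 was 15.8 and 12.4 in vehicle, 4.67 and 3.77 with PTH, and 11.15 and 12.1 with YKL-05-093. Smpd3 was thus lower after PTH by a larger factor than Phospho1, with 0.30 of the vehicle ratio left. Ratios with Smpd3 in comparisons with PTH are a description and are given without a test. With 2 libraries against 2, the exact permutation test has 6 arrangements and cannot go below a two-sided p = 0.333. Each ratio below without Smpd3 that separates both libraries of one condition from both of another had this p.

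Alpl, the alkaline phosphatase, was the highest of the 7 genes in every condition. It had 61.7 and 67.3 RPKM in vehicle, 78.8 and 76.1 with PTH, and 71.4 and 88.9 with YKL-05-093. The treated libraries were all above the vehicle libraries, a separation that 19.1% of tested genes showed upward for PTH and 15.7% for YKL-05-093. The log2 differences from vehicle were 0.27 for PTH (standard error 0.173, 95% interval -0.14 to 0.67, adjusted p = 0.612) and 0.31 for YKL-05-093 (95% interval -0.14 to 0.75, adjusted p = 0.776). PTH and YKL-05-093 differed by -0.04 (95% interval -0.23 to 0.15), and their libraries overlapped. The ratio of Alpl to Smpd3 within a library went from 1.07 and 1.32 in vehicle to 15.55 and 16.4 after PTH, and to 2.38 and 2.25 after YKL-05-093.

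**Figure D2:**
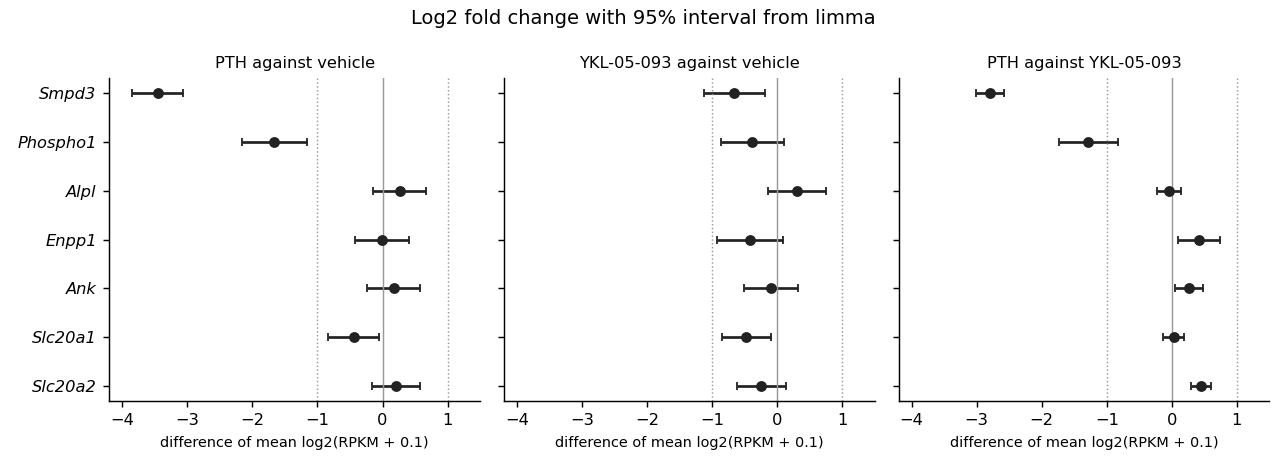
Log2 differences of mean log2(RPKM + 0.1) for the 7 genes in the 3 comparisons, with 95% intervals from limma (2 libraries per condition). Dotted lines mark a 2-fold change. Smpd3 and Phospho1 lie past the left dotted line in both comparisons with PTH, while the other 5 genes lie between the dotted lines in all panels. The set was chosen by the low level of Smpd3 after PTH, so its intervals in those 2 panels are a description and not a test.

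Enpp1, which makes pyrophosphate, was the lowest of the 7 genes in vehicle and after YKL-05-093. It had 1.21 and 1.04 RPKM in vehicle, 1.20 and 1.04 with PTH, and 0.671 and 0.977 with YKL-05-093. Vehicle and PTH libraries overlapped, with a log2 difference of -0.01 (95% interval -0.42 to 0.40, adjusted p = 0.994) whose sign turned under other scalings of the libraries (0.02 and 0.04). Both YKL-05-093 libraries were below all others, by -0.42 against vehicle (95% interval -0.93 to 0.09, adjusted p = 0.692), where 22.1% of tested genes separated in this way, as 26.3% did between PTH and YKL-05-093. PTH against YKL-05-093 gave 0.42 (standard error 0.152, unadjusted p = 0.0145, adjusted p = 0.103). The values rest on 139 to 296 reads per library.

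Ank, which carries pyrophosphate or ATP out of the cell, had 13.6 and 12 RPKM in vehicle, 15.8 and 13.0 with PTH, and 10.7 and 13.3 with YKL-05-093. The 3 conditions overlapped. The log2 differences were 0.17 between PTH and vehicle (95% interval -0.24 to 0.58, adjusted p = 0.762), -0.09 between YKL-05-093 and vehicle (95% interval -0.51 to 0.33, adjusted p = 0.93) and 0.26 for PTH against YKL-05-093 (adjusted p = 0.13). The difference for YKL-05-093 turned to 0.06 without its first library.

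The ratio of Alpl to Enpp1 sets the gene that removes pyrophosphate against the one that makes it. It was 50.85 and 64.9 in vehicle, 65.6 and 73.4 with PTH, and 106 and 91.0 with YKL-05-093. Both treated conditions were above vehicle, 1.21-fold for PTH and 1.71-fold for YKL-05-093, and these are ratios of transcripts and not of activities.

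**Figure D3:**
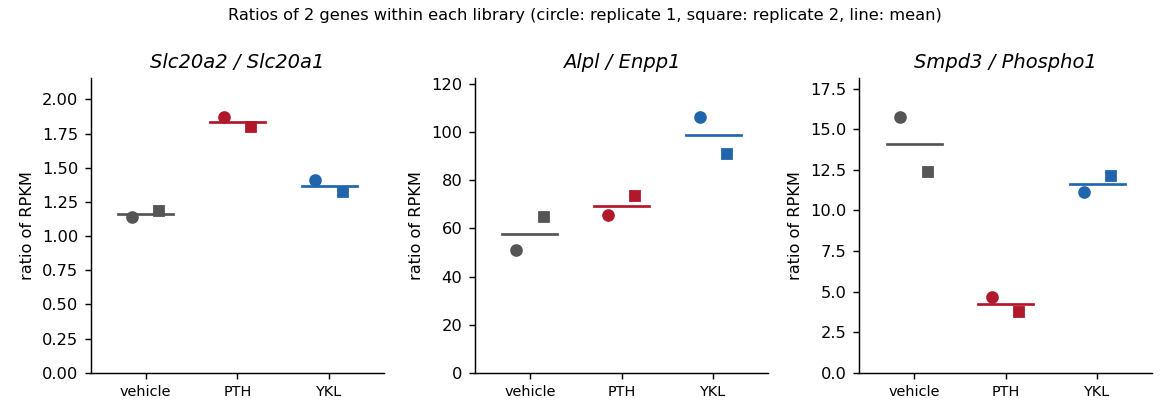
Ratios of RPKM between 2 genes within each library, with points for libraries and lines for means of 2. Slc20a2 over Slc20a1 is highest after PTH (1.87 and 1.80), Alpl over Enpp1 is highest after YKL-05-093 (106 and 91.0) and Smpd3 over Phospho1 is lowest after PTH (4.67 and 3.77).

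Of the phosphate cotransporters, Slc20a1 was below the vehicle libraries and Slc20a2 above them after PTH, and neither difference passed the test. Slc20a1 (PiT-1) had 12.9 and 11.1 RPKM in vehicle, 8.69 and 8.86 with PTH, and 8.52 and 8.70 with YKL-05-093. Both treatments were below vehicle by nearly the same amount, -0.45 for PTH (standard error 0.164, unadjusted p = 0.0285, adjusted p = 0.296) and -0.47 for YKL-05-093 (standard error 0.162, unadjusted p = 0.0223, adjusted p = 0.429). The vehicle libraries are shared by these comparisons, and neither passed the adjustment. Without the second vehicle library the differences were -0.56 (adjusted p = 0.0126) and -0.58 (adjusted p = 0.0278), which passed the p-value threshold and were under 2-fold. PTH against YKL-05-093 gave 0.03 (95% interval -0.13 to 0.19). Both treatments had no library in the vehicle range, a separation downward that 24.0% of tested genes showed for PTH and 22.1% for YKL-05-093.

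Slc20a2 (PiT-2) had 14.8 and 13.2 RPKM in vehicle, 16.3 and 15.9 with PTH, and 12.05 and 11.5 with YKL-05-093. The PTH libraries were above and the YKL-05-093 libraries below those of vehicle, separations that 19.1% and 22.1% of tested genes showed. Both PTH libraries were above both YKL-05-093 libraries in 26.3% of tested genes. Neither difference from vehicle passed, at 0.21 for PTH (95% interval -0.17 to 0.58, adjusted p = 0.679) and -0.24 for YKL-05-093 (95% interval -0.62 to 0.13, adjusted p = 0.793). The direct comparison gave 0.45 (standard error 0.072, 95% interval 0.30 to 0.60, adjusted p = 0.00047), which passed the p-value threshold and was under the 2-fold limit. In that comparison 10.0% of all tested genes had an adjusted p-value under 0.05 at any fold. With all 6 libraries in 1 fit, where the larger spread of vehicle enters, its adjusted p was 0.222, and it was 0.181 without the first and 0.182 without the second PTH library. It was 0.0881 without the second YKL-05-093 library.

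Set against each other in the same library, Slc20a2 over Slc20a1 was 1.14 and 1.19 in vehicle, 1.87 and 1.80 with PTH, and 1.41 and 1.32 with YKL-05-093. The 3 conditions did not overlap, with a 1.58-fold higher ratio after PTH and a 1.17-fold higher ratio after YKL-05-093 than in vehicle. Smim19 exons on the opposite strand cover 1.53% of the Slc20a2 exon length, and Smim19 had 10.5 to 15.6 RPKM. Exons of 9830144P21Rik on the opposite strand cover 8.1% of Slc20a1, and this gene was under 0.1 RPKM in every library.

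The order of the levels per gene length changed with PTH. In vehicle it was Alpl, Smpd3, then Slc20a2, Ank and Slc20a1, whose neighbours overlapped, then Phospho1 and Enpp1. After PTH Smpd3 moved from the second place to the fifth, below Slc20a1, and Phospho1 and Enpp1 overlapped at 1.16 and 1.12 RPKM. After YKL-05-093 Smpd3 kept the second place, and Ank and Slc20a2 overlapped behind it.

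The genes whose pattern was closest to that of Smpd3 were found by the root mean square of the differences in log2(RPKM + 0.1) over the 6 libraries, after the vehicle mean of each gene was subtracted, among 11881 tested genes that averaged 50 reads or more. They were Ahrr (0.500), Nuak1 (0.665), Pdgfa (0.699), Dtx4 (0.786) and Murc (0.815 on the log2 scale). Ahrr encodes a repressor of the aryl hydrocarbon receptor, and had 4.76 and 3.45 RPKM in vehicle, 0.629 and 0.527 with PTH, and 2.54 and 2.82 with YKL-05-093. Nuak1, a kinase of the AMPK family, had 33.7 and 23.7, then 3.45 and 3.50, and 8.05 and 9.40 RPKM in the same order. Pdgfa, a growth factor chain, had 23.3 and 28.7, 4.44 and 4.64, and 9.87 and 10.8 RPKM. All 5 were lowest after PTH and between PTH and vehicle after YKL-05-093, an order that follows from their choice by likeness to Smpd3. Smpd3 had the greatest difference of the 6 genes after PTH, while after YKL-05-093 Nuak1 (-1.69), Pdgfa (-1.32) and Murc (-0.75) were further from vehicle than Smpd3 (-0.66). With at least 500 reads or with a pseudocount of 1, 3 of the 5 were named again. Sp7, a transcription factor of osteoblasts, and Chst15 entered both times. Sp7 had 46.0 and 45.5 RPKM in vehicle, 12.2 and 11.1 with PTH, and 22.4 and 29.65 with YKL-05-093. Of the other members, Phospho1 was 21st (1.06) and Slc20a1 864th by this measure, and Alpl was 10418th.

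**Figure D4:**
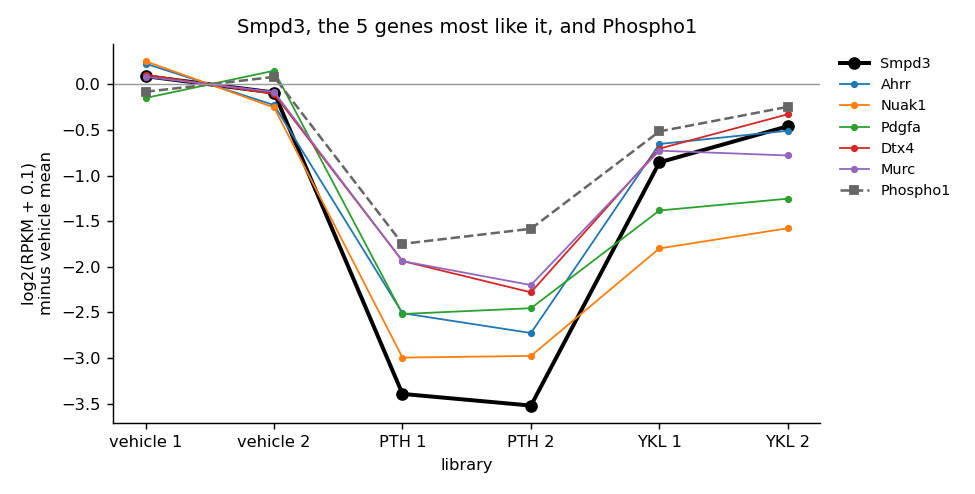
Log2(RPKM + 0.1) minus the vehicle mean of each gene, in each of the 6 libraries, for Smpd3, the 5 genes with the most similar pattern and Phospho1. Lines join the libraries of 1 gene as a guide to the eye. All genes are lowest in the PTH libraries, with Smpd3 at the bottom, and Nuak1 and Pdgfa lie below Smpd3 in the YKL-05-093 libraries. For the 5 genes the low values after PTH follow from their choice by likeness to Smpd3.

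The wider pathways around the 7 genes were read from lists of 92 genes, of which 69 were tested. Against vehicle, PTH changed 1 of the 69 by the rule for calls, Mgp, and YKL-05-093 changed 0 (8 had an unadjusted p-value under 0.05 in limma). The count for PTH was 3 without the second vehicle library and 0 without the first or without the second PTH library. PTH against YKL-05-093 called Mgp higher and Sgms2 lower, and 17 of the 69 (24.6%) had an adjusted p-value under 0.05 at any fold, where 10.0% of all tested genes had one. The median log2 difference over the 69 genes was -0.02 (PTH against vehicle), -0.07 (YKL-05-093 against vehicle) and 0.05 (PTH against YKL-05-093). Over all genes tested the medians were -0.03, -0.04 and 0.01.

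Sgms2 encodes sphingomyelin synthase 2, which uses ceramide in the reverse direction to sphingomyelinase. It had 33.6 and 24.7 RPKM in vehicle, 17.1 and 12.4 with PTH, and 28.1 and 38.6 with YKL-05-093. The PTH libraries were below all others, by -1.17 against YKL-05-093 (standard error 0.132, adjusted p = 1.44e-05) and by -0.98 against vehicle (standard error 0.231, adjusted p = 0.0992). The call against YKL-05-093 ended without the first or the second PTH library, and without the second YKL-05-093 library 1 of the 2 list calls was left, which was also so in 1 fit of all 6 libraries and with the variance trend on the mean value. Of 26 tested sphingomyelin and ceramide genes, 8 had an adjusted p-value under 0.05 between PTH and YKL-05-093, as did 10.0% of all tested genes. For either treatment against vehicle, 0 of the 26 had one. The most abundant of them, Degs1, the desaturase of ceramide synthesis, had 79.5 to 103 RPKM, and its log2 difference from vehicle was -0.16 for PTH and -0.23 for YKL-05-093.

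Mgp encodes matrix Gla protein, an inhibitor of calcification in cartilage and vessels. It had 132 and 196 RPKM in vehicle, 715 and 669 with PTH, and 192 and 194 with YKL-05-093. Both PTH libraries were far above the rest, by a log2 difference of 2.10 against vehicle (standard error 0.223, adjusted p = 0.00526) and 1.84 against YKL-05-093 (standard error 0.067, adjusted p = 7.15e-11). The YKL-05-093 libraries lay within the vehicle range. Without the first or without the second PTH library, no gene of the lists was called in either comparison with PTH. Ibsp, bone sialoprotein, was the most abundant of the 6 tested mineralization proteins, with 292 and 314 RPKM in vehicle, 444 and 332 with PTH, and 414 and 587 with YKL-05-093. Its log2 differences from vehicle were 0.34 and 0.70, and neither passed (adjusted p = 0.601 and 0.386).

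Between PTH and YKL-05-093, 10.0% of all tested genes had an adjusted p-value under 0.05. Of the 11 tested genes of pyrophosphate and nucleotide metabolism, 2 had one there and 0 against vehicle. One of these, chosen after its values were seen, was Nt5e, the ectoenzyme that turns AMP into adenosine, with 11.25 and 8.13 RPKM in vehicle, 6.78 and 6.15 with PTH, and 11.2 and 12.6 with YKL-05-093. PTH was lower than YKL-05-093 by -0.87 for Nt5e (adjusted p = 4.69e-06), under 2-fold. Ppa1, a pyrophosphatase inside cells and the most abundant of the list, had 17.5 to 27.9 RPKM, and its difference from vehicle was -0.35 for PTH and -0.44 for YKL-05-093, neither of which passed.

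Annexins bind calcium and membranes and are abundant in matrix vesicles. All 9 were tested, and 0 passed against vehicle. For PTH against YKL-05-093, 4 had an adjusted p-value under 0.05, as did 10.0% of all tested genes. These 4, named after their values were seen, were lower after PTH, by -0.28 for Anxa1, -0.33 for Anxa3, -0.30 for Anxa4 and -0.41 for Anxa6. Anxa5, the most abundant, had 316 and 376 RPKM in vehicle, 305 and 287 with PTH, and 312 and 323 with YKL-05-093, and did not pass in any comparison. The median over the 9 was -0.18 in that comparison, against 0.01 over all genes.

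Of 5 other phosphate transport genes, the sodium-phosphate cotransporters of the Slc34 family (3 genes) did not pass the filter. Slc25a3, the mitochondrial phosphate carrier, had 60.0 to 72.1 RPKM, and Xpr1, the phosphate exporter, had 1.86 to 2.81 RPKM, with log2 differences from vehicle between -0.14 and 0.12. In choline and ethanolamine metabolism, which makes and uses phosphocholine inside cells, 0 of 12 tested genes passed in any comparison, and the most abundant, the choline transporter Slc44a1, had 21.2 to 28.2 RPKM. Of 3 zinc transport genes that supply alkaline phosphatase, the most abundant, Slc30a5, had 33.5 and 32.8 RPKM in vehicle, 27.0 and 24.5 with PTH, and 29.95 and 28.6 with YKL-05-093, and did not pass. Slc30a6, named after its values were seen, was higher after PTH than after YKL-05-093 by 0.32 on the log2 scale. It was the 1 gene of this list with an adjusted p-value under 0.05 there, which 10.0% of all tested genes had.

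**Figure D5:**
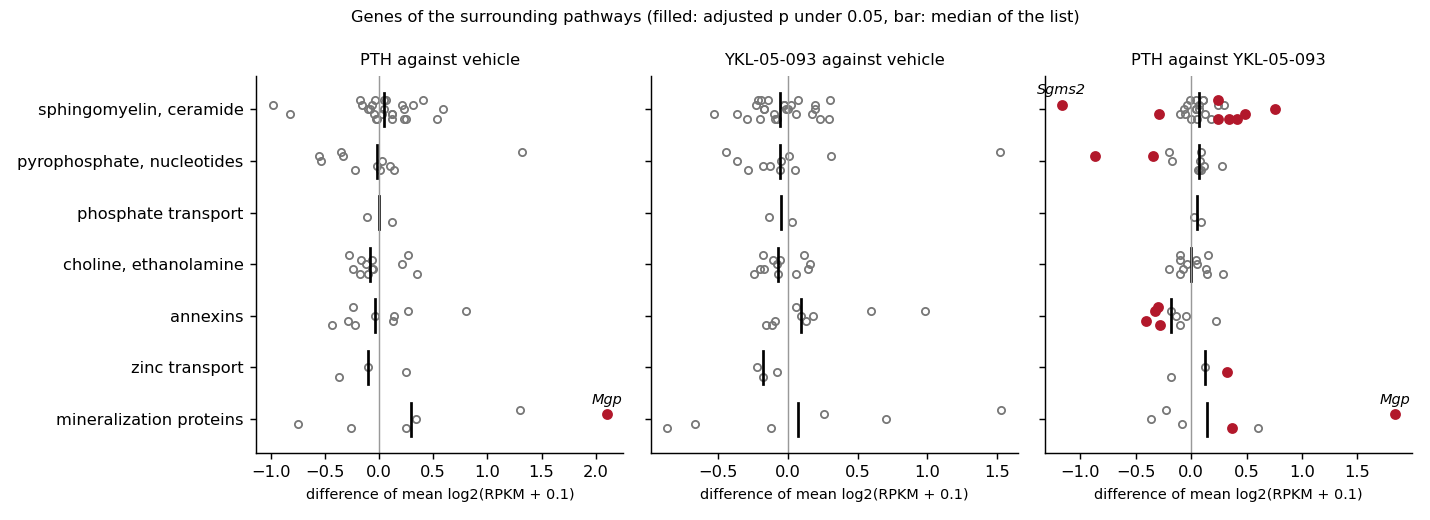
Log2 differences of mean log2(RPKM + 0.1) for the 69 tested genes of 7 lists, 1 panel per comparison, with 1 point per gene and a bar at the list's median. Filled points have an adjusted p-value under 0.05 in limma. Mgp is the 1 filled gene for PTH against vehicle, no gene is filled for YKL-05-093 against vehicle, and 17 are filled for PTH against YKL-05-093.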

How the data were processed

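Directional libraries were made from total RNA of Ocy454 cells after ribosomal RNA had been removed. Per the study's methods, the authors used STAR with mm10/GRCm38 for mapping, counted reads per gene with HTSeq and an Ensembl annotation and tested them with edgeR. The authors deposited RPKM values for 39179 genes, and the values themselves show a linear scale and, once read counts are worked back, no added factor between libraries. The submitters' processing notes also name CASAVA 1.7. Each deposited RPKM is a multiple of the value of 1 read, so reads, gene lengths and library totals (17505798 to 27983585) were worked back from the values by a search that makes them whole. A gene at 34 reads has a 95% Poisson interval of 23.6 to 47.5 reads, which covers counting error only. Because RPKM are not counts, limma 3.58.1 in R 4.3.3 was run on log2(RPKM + 0.1), two-sided, on the 4 libraries of each comparison, for genes that reached 0.5 RPKM in 2 or more of 6 libraries, with a variance trend on the recovered reads and Benjamini-Hochberg adjustment over all genes tested. Genes at 0 in all 4 libraries of a comparison were left out of it. The reported log2 fold changes subtract mean log2(RPKM + 0.1) values, which understate the change of low genes. The script was tested on simulated data.

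The 7 genes, the lists of surrounding genes and the settings were chosen with earlier results of these data known, so p-values of members are not independent evidence. Genes named are the 7 members, list genes called in any comparison, the most abundant gene of each list and the 5 genes most like Smpd3. Genes above 0 in the data whose exons overlap a member are also named, as are cell type markers. Xpr1 and Chst15 fall outside these rules. Other genes outside them are marked as named after their values were seen. Positions and overlaps come from GENCODE M21 of GRCm38, which holds 37607 of the listed identifiers (96.0%). The annotation release used for counting was older, and 35.5% of recovered lengths equal the M21 merged exon length less 1 base per exon. Promoter sequences come from RefSeq (GRCm38.p6). Alternatives in pseudocount, filter, variance trend, scaling, joint fit, voom on recovered reads, replicate block and left-out libraries were run. The authors' own comparison columns were not used.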

Additional observations from a re-analysis of the deposited data

How the results depend on the processing

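The alternatives changed the number of called genes. The filter, variance trend, joint fit, replicate block, fold limit and genes at 0 cannot move a gene's log2 difference in this design. Only the pseudocount, the scaling, voom and left-out libraries can. For PTH against vehicle, 272 genes were called, against 0 without a filter on low values (2341 at an unadjusted p-value under 0.05 in limma), 160 with the trend on the mean value and 14 to 671 with 1 library left out. For YKL-05-093 against vehicle, the count of 95 became 55 with a pseudocount of 1, 57 with a filter of 0.1 RPKM, 0 without a filter (1735 at an unadjusted p-value under 0.05), 6 with the trend on the mean value, 173 with 1 fit of all 6 libraries, 34 with genes at 0 kept (chosen after seeing the data) and 11 to 320 with 1 library left out. For PTH against YKL-05-093, the count of 172 became 98 with a pseudocount of 1, 102 with 1 fit, 1427 without a fold limit and 0 to 155 with 1 library left out, with 0 without either PTH library. The cause was not tested.

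The filter sets which genes are tested and cannot move a gene's own difference (-3.46 for Smpd3 in PTH against vehicle, given without a test). Without a filter and with more genes tested, Phospho1 no longer passed in limma. Its differences were -1.67 for PTH against vehicle (adjusted p = 0.074) and -1.29 for PTH against YKL-05-093 (adjusted p = 0.0667). With a pseudocount of 1, Phospho1 was at -0.88 between the treatments, under 2-fold. Slc20a2 (0.45) passed in that comparison without a fold limit. With 1 library left out, Phospho1 ranged from -1.75 to -1.58 for PTH against vehicle and from -1.42 to -1.15 between the treatments, where Smpd3 ranged from -3.0 to -2.60. Signs turned only for differences near 0. Enpp1 after PTH was 0.021 with centred libraries, 0.041 with voom, and -0.111 to 0.099 with 1 library left out. Ank after YKL-05-093 ranged from -0.247 to 0.058 (without its first library) and Alpl between the treatments from -0.20 to 0.12.

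Over the tested genes, the correlations of replicate differences between conditions were -0.034, -0.054 and -0.049, and so showed no pairing by replicate number. The share of reads on mitochondrial genes was nevertheless higher in replicate 2 of every condition. It was 11.62% and 14.95% in vehicle, 13.69% and 16.48% with PTH, and 13.14% and 15.82% with YKL-05-093. Whether the replicate numbers mark a shared batch was not tested. With the replicate number as a block, 441, 215 and 196 genes were called in the 3 comparisons, and no call of a member changed. Between PTH and YKL-05-093, Enpp1 and Ank then passed the p-value threshold (adjusted p = 0.0208 and 0.0195, limma) and were under 2-fold. Of the 69 list genes, 3 were then called for PTH and 2 for YKL-05-093 against vehicle. A left-out library leaves 1 condition with a single library, which is assumed to vary like the others. At the 34 reads of Phospho1 after PTH, counting error limits the precision.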
